A study of Homo sapiens with 7 samples.

Results

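The regions described here carried a PPARα peak in both libraries of HepG2 cells given PPARα together with ERβ, and no peak in any library of the other groups. Peaks of all 6 lists on chromosomes 1 to 22 and X were merged where they overlapped by 1 bp or more. Of the 92292 regions this gave, 1132 met the rule, which is 1.23% of them. They are called ERβ-only regions below, where only refers to the peak calls of these 6 lists. Among the 10204 regions with a peak in both PPARα+ERβ libraries, they made up 11.1% (95% Wilson interval 10.5 to 11.7%). The regions were chosen by the presence and absence of these called peaks, so the counts are a description with no test.

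PPARα is a nuclear receptor that fatty acids and fibrate-like drugs activate. In liver it pairs with RXR on direct repeats of AGGTCA 1 base apart and raises genes of fatty acid oxidation, ketone production and lipid transport. ERβ is an estrogen receptor that binds inverted repeats of a related element and can also act through other DNA-bound factors such as AP-1. Both receptors recruit coactivators of the same families. HepG2 is a line from a human hepatocellular carcinoma and is widely used as a liver cell model.

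In the PPARα+ERβ group, cells carried expression vectors for PPARα and for Flag-tagged ERβ. From 48 h after transfection they were given the ERβ-selective agonist DPN at 10 nM for 45 min, followed by WY14643, which activates PPARα, at 10 µM for 2 h. The PPARα+ERα group carried vectors for PPARα and ERα and received PPT, an ERα-selective agonist, at 10 nM on the same schedule. The PPARα group carried the PPARα vector alone and received WY14643 at 10 µM for 2 h, with no pretreatment named. Every group therefore shared the PPARα vector, its agonist and the antibody to PPARα used for precipitation. No group had the ERβ vector without DPN, or DPN without the vector, so the receptor and its agonist cannot be told apart. Overexpression was by transfection, and each precipitation pooled several culture plates. The 2 libraries of a group carry the same S number in their titles and are not described as separate cultures, so their agreement may be technical. A sample without antibody has no peak list among the files used and was not analysed here.

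Sequence could be read for regions that overlapped a promoter window, which runs from 250 bases before to 50 after a transcription start in RefSeq, build GRCh38.p14. Peaks of both libraries at ERβ-only regions overlapped 12 of 34961 such windows, or 0.0343%. The 4 stretches shown are those parts of windows before the start that both peaks covered at NCAPH (chr2:96335516-96335765, plus strand), RCC1 (chr1:28505903-28506042, plus strand), SLC29A1 (chr6:44219365-44219425, plus strand) and SAR1A (chr10:70170591-70170764, minus strand). They were picked because together they carry each kind of motif found in such stretches. DCAF10 and MARCHF7 also had a GC box there and are not shown. The stretches at BICRA, SNHG3, BAZ2B, CUL3 and IL16 held none of the motifs searched. Capitals mark matches, on either strand, to an NRF1 site, an ETS site, a GC box, a CCAAT box and an E-box, whose letters are given with their counts.
NCAPH: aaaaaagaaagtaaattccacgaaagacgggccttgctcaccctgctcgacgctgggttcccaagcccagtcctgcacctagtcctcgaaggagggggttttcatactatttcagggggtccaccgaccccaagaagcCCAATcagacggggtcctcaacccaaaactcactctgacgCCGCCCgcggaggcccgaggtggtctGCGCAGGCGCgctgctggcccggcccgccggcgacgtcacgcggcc
RCC1: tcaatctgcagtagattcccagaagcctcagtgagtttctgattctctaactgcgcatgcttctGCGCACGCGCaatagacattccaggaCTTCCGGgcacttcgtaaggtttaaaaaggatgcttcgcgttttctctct
SLC29A1: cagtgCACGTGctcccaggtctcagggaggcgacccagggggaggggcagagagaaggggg
SAR1A: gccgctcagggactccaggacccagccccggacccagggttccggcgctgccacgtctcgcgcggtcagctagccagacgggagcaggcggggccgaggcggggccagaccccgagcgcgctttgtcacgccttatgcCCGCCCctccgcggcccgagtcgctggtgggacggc

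At NCAPH, which encodes a subunit of the condensin complex that compacts chromosomes, the region spanned the whole window. Its CCAAT box lay 112 to 108 bases before the start, its GC box 72 to 67 bases before and its NRF1 match 46 to 37 bases before. The summit lay 149 bp before the start in library 1 and 228 bp before it in library 2, so neither summit sat on these letters. At RCC1, the exchange factor that charges the GTPase Ran on chromatin, both summits lay 79 bp after the start. Its NRF1 match ended 67 bases before that start and its ETS match 44 bases before it. The same region overlapped the window of SNHG3, a host gene for small nucleolar RNAs. SLC29A1, an equilibrative nucleoside transporter, had both summits 416 bp before its start and an E-box 245 to 240 bases before it. SAR1A, a GTPase that starts COPII vesicle budding, had summits 310 and 312 bp before its start.

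Motif letters were counted in all 12 windows and set beside all windows of the same length, with both strands read. The core AGGTCA was in 0 of 12 windows, which allows a share of up to 25%, against 13.8% of all windows. Its direct repeat 1 base apart was in 0 of 12, against 0.0229%. An inverted repeat of GGTCA and TGACC 3 bases apart, the estrogen response element, was in 0 of 12, against 0.0572%. A variant of it, AGGTCA and TGAC 3 bases apart, which overlaps both of these, was in 0 of 12, against 0.0772%. GGGCGG was in 9 of 12 windows, against 45.0%, and the NRF1 site, GCGCA and GCGC 1 base apart, in 3 of 12, against 5.80%. RCC1 and SNHG3 share 1 copy of the NRF1 site, and the windows of BAZ2B and MARCHF7 overlap and share a GC box. These counts cover whole windows, including parts outside the peaks. In the parts before the start that both peaks covered, GC boxes were at DCAF10, MARCHF7, NCAPH and SAR1A alone. CCGGAAG, the ETS site, was in 3 of 12, against 10.3%, at DCAF10, RCC1 and SAR1A. Of these, RCC1 alone had it in the part before the start that both peaks covered. CCAAT was in 2 of 12, against 34.6%, and CACGTG in 1 of 12, against 7.27%. No window held the AP-1 site TGANTCA (7.68% of all windows), the cyclic AMP element TGACGTCA (1.85%), the FOXA site TGTTTAC (3.42%), the HNF4 core CAAAGTCCA (0.386%) or the YY1 site (0.852%). With 12 windows these are descriptions of letters in a window, not of factors on DNA.

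The PPARα+ERβ lists held 17457 and 23302 peaks in libraries 1 and 2, the PPARα+ERα lists 24505 and 27544, and the PPARα lists 23805 and 36302. The genome-wide background of the peak caller implied 1 fragment per 537 and 449.8 bp with PPARα+ERβ, per 779.7 and 725 bp with PPARα+ERα, and per 537 and 471 bp with PPARα. The PPARα+ERα libraries were thus the shallowest. For each summit, the fragments stacked on it and its local background were worked out from the authors' fold and −log10 p. No read total was used, so the precision of a single region is that of its stack.

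At ERβ-only regions the median stack was 22 fragments in PPARα+ERβ library 1 (quartiles 15 and 33) and 26 in library 2 (quartiles 16 and 37.3). Other regions with peaks in both PPARα+ERβ libraries had medians of 29 and 35 fragments. The ERβ-only regions rose from a local background with a median 7.42 and 8.52 times the genome-wide level, against 8.66 and 9.74 times at the others. Their median fold over that background, the authors' own value, was 3.98 and 3.95, against 4.42 and 4.46. Within each list, ranked by −log10 q from 0 to 100, they stood at a median percentile of 40.7 and 44.4, against 62.4 and 67.5 for the others. ERβ-only regions were thus in the lower part of these lists, with median widths of 343 and 351 bp, against 357 and 371 bp.

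Both PPARα+ERβ libraries placed the summit of an ERβ-only region at nearly the same base. The summits were a median of 2 bp apart, 813 of 1132 pairs (71.8%) lay within 5 bp, and 47 lay over 100 bp apart. The others had a median of 2 bp too, with 72.7% within 5 bp. Across the 1132 regions the stacks of the libraries had a Spearman rho of 0.93 and the within-list percentiles a rho of 0.63. The local backgrounds, which enter both values, had a rho of 0.99. Scaled by the genome-wide backgrounds of the lists, the stack in library 2 was a median 0.962 times that in library 1, and 10 regions differed by more than 2 times.

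Recurrence between the libraries was lower where no other group had a peak. Library 1 had 4015 regions with no peak outside its group, of which library 2 also called 1132, or 28.2% (26.8 to 29.6%). Of the 5778 such regions in library 2, library 1 called 19.6% (18.6 to 20.6%). Where exactly 1 PPARα library and no PPARα+ERα library also had a peak, the shares were 51.5% and 34.8%. Where both PPARα libraries and no PPARα+ERα library had a peak, they were 76.7% and 61.8%. The same count for regions called in a single group gave 35.8% and 31.7% for PPARα+ERα, and 63.5% and 28.6% for PPARα. Most regions that a PPARα+ERβ library held with no peak in another group were thus not called by its partner library.

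**Figure D1:**
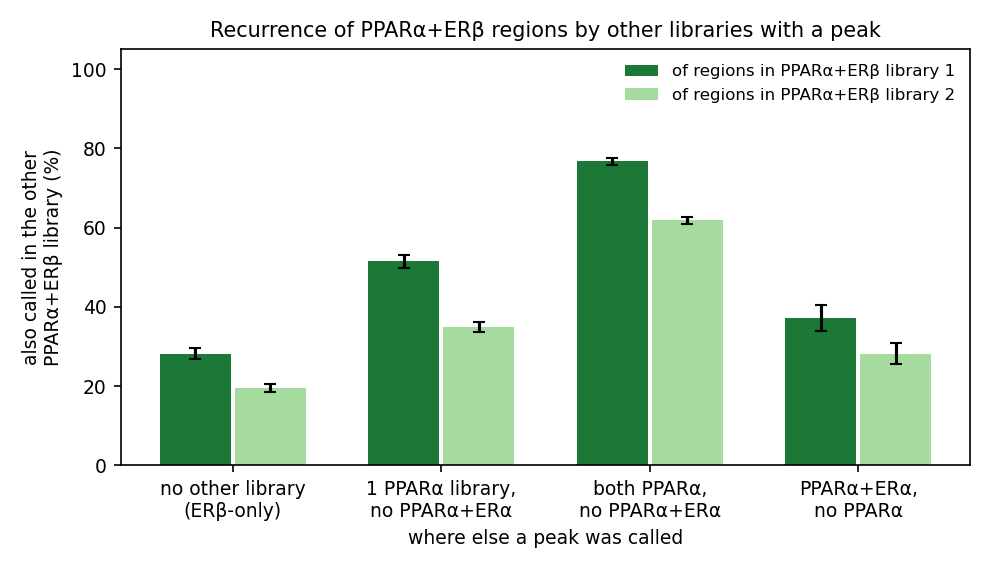
Share of regions called in PPARα+ERβ library 1 (dark bars) or library 2 (light bars) that the other PPARα+ERβ library also called, in percent, by which other libraries had a peak there. Error bars are 95% Wilson intervals for counting error. The share is 28.2% and 19.6% at regions with no peak in another group, and 76.7% and 61.8% where both PPARα libraries and no PPARα+ERα library had one.

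A region without a called peak may still hold fragments, and the lists allow an estimate of how many would have been needed for a call. Summits of different libraries were paired within 5 bp where the PPARα+ERβ background was over 3 times the genome-wide level. The local backgrounds of such pairs mostly stood in the same ratio. For PPARα+ERβ library 1, 92.6% of 6198 such pairs with PPARα library 1 and 83.2% of 6622 pairs with PPARα library 2 lay within 1% of the commonest ratio. For PPARα+ERβ library 2 the shares were 93.3% of 7537 and 97.1% of 9309 pairs. With the PPARα+ERα libraries they were 72.0 to 77.5% of 218 to 267 pairs. The commonest ratio was used to estimate the background at each ERβ-only region in each other library, and from it the largest stack whose p would miss that list's threshold, called its calling limit here. The ratio was not checked at backgrounds of up to 3 times the genome-wide level, such as those at ASB4 and TUBB3 (1.0 times) and ARL15 (1.56 times). WBP4 and PER2 (2.47 times in PPARα+ERβ library 1) and MDM2 (2.45 times) fell in this range too. The estimate can be wrong where the backgrounds differ from that ratio. At PDE11A they were 3.11 and 6.09 times the genome-wide level in the PPARα+ERβ libraries themselves, and at BCAS3 4.95 and 11 times. No list held a peak shorter than 304 bp, so a higher but narrower stack could also have gone uncalled, and the limit is not a ceiling on the fragments present.

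The median calling limit was 12 and 13 fragments in the PPARα libraries and 9 and 10 in the PPARα+ERα libraries. The limits of the PPARα+ERβ libraries themselves were nearly those of the PPARα libraries, as at GPCPD1, with 16 and 18 against 16 and 17. Because the rule required a call in both PPARα+ERβ libraries, their stacks had to stand above their own limits, by a median of 1.72 and 1.75 times, and that they also stood above the PPARα limits follows largely from this choice. The ratios are therefore given as a description of how far above. Scaled by the genome-wide backgrounds, the lower of the PPARα+ERβ stacks was more than 1.25 times both PPARα limits at 882 of 1132 regions (77.9%), more than 1.5 times at 590 (52.1%) and more than 2 times at 238 (21.0%). The highest ratio was 4.52 and the lowest 0.948. Set against the limits of all 4 other libraries, 373 regions (33.0%) were more than 1.5 times and 110 (9.72%) more than 2 times above. For 250 regions (22.1%) the lower stack was at most 1.25 times a PPARα limit.

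**Figure D2:**
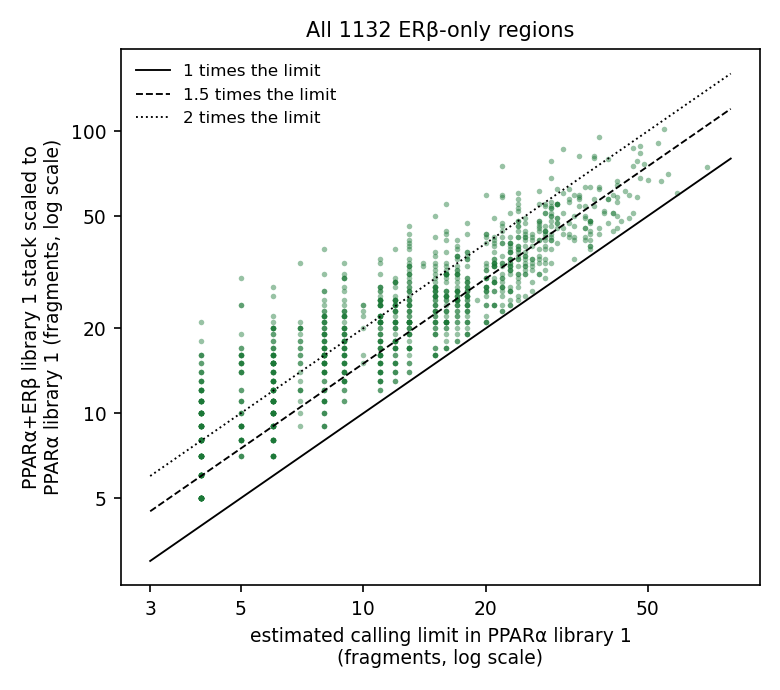
Stack of PPARα+ERβ library 1 at each of the 1132 ERβ-only regions, scaled by the genome-wide backgrounds to PPARα library 1, against the estimated calling limit of PPARα library 1 there (fragments, both axes log). Each point is a region and lines mark 1, 1.5 and 2 times the limit. Points lie mostly between the lines for 1 and 2 times, with a smaller share above 2. That points lie above 1 follows largely from the choice of called regions.

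The regions with the largest ratio to the PPARα limits differed from those with the smallest more in background than in stack. The limits are worked out from the background, so a lower background at a high ratio follows in part from how the ratio is made. The 238 with a ratio over 2 had median stacks of 20 and 23 fragments over backgrounds of 3.71 and 3.65 times the genome-wide level. The 250 with a ratio up to 1.25 had median stacks of 23 and 27 fragments over backgrounds of 13.6 and 13.4 times. A gene end of a protein-coding gene lay within 3 kb of the summit at 13.4% (9.69 to 18.4%) of the regions over 2 and 6.8% (4.29 to 10.6%) of those up to 1.25, with intervals that overlap.

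The highest ranked ERβ-only region lay at GPCPD1, whose enzyme splits glycerophosphocholine into choline and glycerol phosphate. It ranked at the 98.6th percentile of library 1 and the 99.5th of library 2 and lay 671 bp outside an end of the gene (chr20:5611580-5611912). It held 55 and 71 fragments, a fold of 7.46 and 8.21 over its local background with 1 added to each term. The PPARα calling limits there were 16 and 17 fragments. Here and below, stacks of named regions are not scaled for depth, and limits are those of the PPARα libraries. PPARα+ERβ library 2 was deeper than both PPARα libraries, so its raw stacks overstate the margin. A further ERβ-only region lay inside GPCPD1 (chr20:5607824-5608243), 3054 bp from the same end, with 58 and 65 fragments. Near the bottom, at place 1059 of 1132, stood GCLM, which encodes the modifier subunit of the enzyme that makes the precursor of glutathione. Its region (chr1:93890521-93890894) held 30 and 24 fragments, against PPARα limits of 20 and 21, and its lower depth-scaled ratio was 0.995.

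PRRC2C, which encodes an RNA-associated proline-rich protein, carried a region 441 bp after its start (chr1:171485736-171486129). It held 34 and 38 fragments over a low background, a fold of 12.4 and 12.2, against PPARα limits of 7 and 8 fragments. ZNF487, a zinc finger gene, had one 584 bp before its start (chr10:43436245-43436583) with 78 and 91 fragments, against limits of 29 and 32. BICRA encodes a subunit of the non-canonical BAF chromatin remodelling complex, and its region (chr19:47608992-47609392) lay at an internal start, with summits 110 and 112 bp after it. It held 75 and 65 fragments, against limits of 22 and 24. WBP4, a WW-domain protein of the spliceosome, had 28 and 28 fragments 444 bp after its start (chr13:41061738-41062117), against limits of 6 and 7. The lower depth-scaled ratio to the PPARα limits was 4.50 at PRRC2C, 2.60 at ZNF487, 2.45 at BICRA and 3.82 at WBP4.

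Farther from the start but within 3 kb of an end were SEC14L1, NHERF1 and ZSWIM7. SEC14L1, a member of the SEC14 lipid-binding family, had 38 and 36 fragments 2984 bp after its start (chr17:77091461-77091829), with limits of 8 and 9. It stood 646 bp from a PPARα peak. NHERF1, a PDZ scaffold that holds transporters at the apical membrane, had 57 and 65 fragments (chr17:74750301-74750737), with limits of 24 and 26. ZSWIM7, a factor of homologous recombination, had 30 and 39 (chr17:15998403-15998770), with limits of 9 and 10. PKMYT1, the kinase that holds CDK1 inactive, had 79 and 92 (chr16:2980683-2981057), but its limits were also high, at 40 and 45. ZCCHC3, a cofactor of DNA and RNA sensing, had 88 and 107 (chr20:297483-297912), with limits of 49 and 54. The histone gene H3C4 had 86 and 83 (chr6:26195587-26195915), with limits of 33 and 37.

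The ERβ-only region with the most fragments lay at TLCD1, a membrane protein that limits polyunsaturated lipids in phospholipids. It held 101 and 111 fragments (chr17:28727311-28727639), 608 bp before a start and 397 bp from an end. Its local background was 58.1 and 59.7 times the genome-wide level, so its fold was 2.91 and 2.59 and its limits were 57 and 63 fragments. Stacks and limits thus rose together, and a high stack alone did not set a region apart. RWDD2B, 49 bp from an end, had 43 and 47 fragments (chr21:29019124-29019548), with limits of 16 and 17, and CBY3 had 43 and 65 (chr5:179677979-179678389), with limits of 18 and 20. The widest region, 1007 bp (chr13:79247777-79248783), lay outside genes and had 17 and 16 fragments. Its closest coding gene was RBM26, 63844 bp away.

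**Figure D3:**
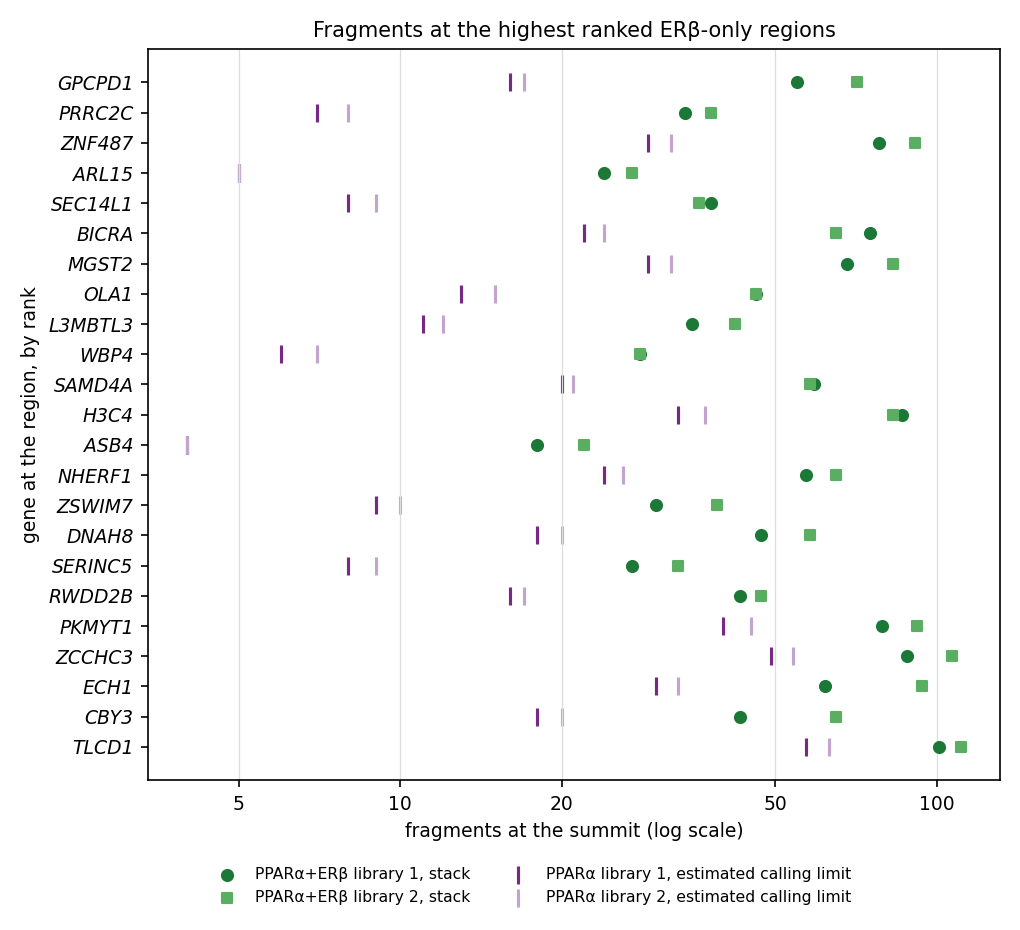
Fragments at the summit (log axis) in PPARα+ERβ library 1 (circles) and library 2 (squares) at ERβ-only regions with a coding gene, by rank downwards, beside the estimated calling limit in PPARα library 1 (dark ticks) and library 2 (light ticks). The stacks are not scaled for depth, and run from 18 and 22 against 4 and 4 at ASB4 to 101 and 111 against 57 and 63 at TLCD1.

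Inside long genes, far from an end, the 8 highest ranked regions stood over backgrounds of 1.0 to 26.0 times the genome-wide level. ASB4, a substrate adaptor of a ubiquitin ligase, held the region with the highest ratio of all (chr7:95500581-95500939). It had 18 and 22 fragments at the genome-wide background, a fold of 12 and 13.5, against limits of 4 and 4 and a ratio of 4.52. ARL15, an ARF-like small GTPase, had 24 and 27 fragments 38617 bp from its start (chr5:54271731-54272122), against limits of 5 and 5. OLA1, an Obg-like ATPase, had 46 and 46 fragments (chr2:174166124-174166474), against 13 and 15. MGST2, a microsomal enzyme that makes leukotriene C4, had 68 and 83 (chr4:139689114-139689478), against 29 and 32. L3MBTL3, a reader of methylated lysines, had 35 and 42 (chr6:130070377-130070798), against 11 and 12. SAMD4A, an RNA-binding repressor of translation, had 59 and 58 (chr14:54717442-54717899), against 20 and 21, and DNAH8, an axonemal dynein chain, had 47 and 58 (chr6:38881215-38881564), against 18 and 20. SERINC5, a membrane protein that restricts retroviruses, had 27 and 33 (chr5:80191481-80191928), against 8 and 9.

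Of the 5 highest ranked regions outside every gene, 2 lay on chromosome 8 and the others on chromosomes 20, 14 and 17. The chromosome 20 region (chr20:56550274-56550710) held 81 and 92 fragments 3508 bp from the noncoding gene LOC124904971, with PPARα limits of 38 and 41. The chromosome 14 region (chr14:32297551-32297895) held 80 and 99 fragments, with limits of 38 and 41. The chromosome 17 region (chr17:51459129-51459504) held 50 and 44 fragments 13454 bp from LINC02073, with limits of 15 and 16.

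At promoter windows, RCC1 held 87 and 91 fragments (region chr1:28505893-28506216), with PPARα limits of 46 and 51. NCAPH held 57 and 70 (chr2:96335507-96335841), with limits of 32 and 36. SAR1A had 39 and 51 fragments (chr10:70170534-70170935) with limits of 24 and 26, and SLC29A1 had 34 and 28 (chr6:44219059-44219483) with limits of 13 and 15. DCAF10, a substrate receptor of CUL4 ubiquitin ligases, had 63 and 77 (chr9:37800414-37800757), with limits of 37 and 40. A region of 54 and 63 fragments (chr2:159712098-159712464), with limits of 29 and 32, covered the start of BAZ2B, a bromodomain protein. Its summits lay inside BAZ2B, 216 and 218 bp after that start. They were 280 and 282 bp before the divergent start of MARCHF7, a ubiquitin ligase. CUL3, the scaffold of another ubiquitin ligase family, had 17 and 17 fragments with summits 97 and 95 bp before an internal start (chr2:224569964-224570299). ADAM22 and IL16 completed the list, with 42 and 50 and with 10 and 10 fragments.

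Most ERβ-only regions were far from a transcription start, with a minority beside one. Start positions were available for chromosomes other than 8, and so for 1074 of the 1132. A start lay within 3 kb of the summit at 112 of these, 10.4% (8.74 to 12.4%), against 7.08% (6.56 to 7.64%) of the 8631 other regions in both PPARα+ERβ libraries, intervals that do not overlap. The others differed among themselves. Without a PPARα+ERα peak, regions with 1 PPARα library gave 7.15% (6.05 to 8.43%) and those with both 6.65% (6.03 to 7.33%). With a PPARα+ERα peak, regions with 1 PPARα library gave 12.8% (9.53 to 17.1%), those with both 6.68% (4.90 to 9.03%) and those with neither 9.65% (6.84 to 13.4%). The share at ERβ-only regions was thus not the highest of these sets. Among ERβ-only regions the share was 6.81% (4.23 to 10.8%) where the ratio to the PPARα limits was up to 1.25. From 1.25 to 1.5 it was 11.3% (8.1 to 15.5%), and from 1.5 to 2 it was 12.1% (9.0 to 16.0%). Over 2 it was 10.7% (7.31 to 15.45%), and the intervals of all these classes overlap. Within 500 bp the shares were 1.49% (0.919 to 2.41%) of ERβ-only regions and 0.939% (0.756 to 1.17%) of the others, whose intervals overlap. The median distance to a start was 30769 bp, against 34425 bp. These intervals cover counting error only, the regions come from the same 2 libraries, and no permutation over 2 libraries a group could reach 0.05, so no p is given.

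**Figure D4:**
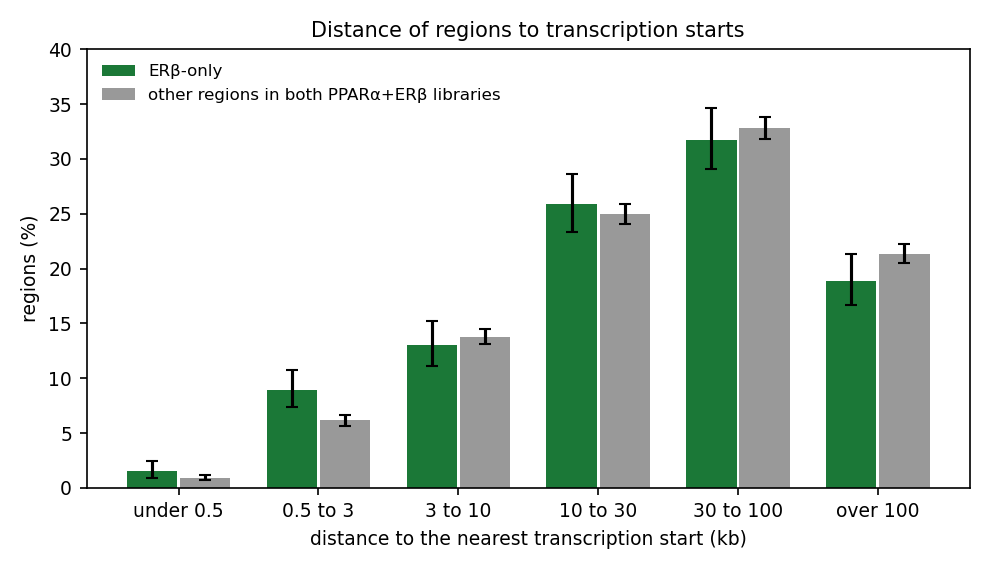
Share of ERβ-only regions (green, 1074) and of other regions in both PPARα+ERβ libraries (grey, 8631) by distance from summit to the nearest transcription start, in percent with 95% Wilson intervals. The classes from 0.5 to 3 kb hold 8.94% and 6.14%, and over 100 kb 18.9% and 21.3%.

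Most ERβ-only regions near a start were beside it rather than on it. Summits lay up to 250 bp before a start at 2 regions and up to 250 bp after it at 3. A further 18 lay 250 to 1000 bp before and 16 lay 250 to 1000 bp after, while 29 and 44 lay 1 to 3 kb before and after. An end of any gene was within 3 kb at 224 regions, 19.8% (17.6 to 22.2%), against 17.9% (17.2 to 18.7%) of the others, whose intervals overlap. An end of a coding gene was within 3 kb at 123 regions, 10.9% (9.18 to 12.8%), against 8.53% (7.97 to 9.12%). Summits were inside a gene at 752 regions, 66.4% (63.6 to 69.1%), against 63.3% (62.3 to 64.3%), and inside a coding gene at 632, 55.8% (52.9 to 58.7%), against 51.0% (50.0 to 52.1%). The remaining 380 regions, 33.6%, lay outside every gene.

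Counted by gene, 291 of 59098 genes had an ERβ-only region within 3 kb of an end, or 0.492%, and 763 had one inside the span, or 1.29%. For protein-coding genes these counts were 134 of 19974, or 0.671%, and 599, or 3.0%. Longer genes held a region more often. A region lay in or near 0.424% of coding genes under 10 kb, 1.90% of those of 10 to 50 kb, 7.37% of those of 100 to 200 kb and 15.8% (13.9 to 17.8%) of the 1396 that were 200 kb or longer. Of the 45 coding genes with 2 or more regions, BAZ1A, ACYP2, KSR2, CTNNA2 and FHIT held 3 each. BAZ1A, a chromatin remodelling subunit, is the shortest of the 5 at 122630 bp, and FHIT and CTNNA2 exceed a megabase.

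Lists of genes from PPARα and estrogen receptor biology were then read against 0.671% near an end and 3.34% near an end or in the span, the shares over all coding genes. Among 30 fatty acid oxidation genes, ECH1, an isomerase for unsaturated fatty acids, had the single region, 799 bp inside an end (chr19:38830957-38831305). It held 62 and 94 fragments, a fold of 3.72 and 4.96, against PPARα limits of 30 and 33. Of 30 lipid handling and signal targets of PPARα, PLIN2, the lipid droplet coat protein, held a region 3370 bp after its start (chr9:19124018-19124338). It held 57 and 74 fragments, against limits of 38 and 41, and stood 1585 bp from a PPARα peak. No other gene of these lists had a region near an end or in the span. ACLY, which makes cytosolic acetyl-CoA, was the single gene of 36 in cholesterol, fatty acid and bile acid synthesis, with 16 and 18 fragments (chr17:41887142-41887520) and limits of 7 and 8.

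Clock genes were the list with the highest share near an end, 2 of 23 matched symbols or 8.70%, both of them period genes. PER2 and PER1 encode repressors that close the circadian feedback loop. PER2 had 26 and 22 fragments 1170 bp inside its 3′ end (chr2:238245043-238245507), a fold of 11 and 8.43, against PPARα limits of 6 and 7. PER1 had 53 and 59 fragments 1699 bp before its start (chr17:8153986-8154332), a fold of 3.34 and 3.14, against limits of 29 and 32. The lower ratio to the PPARα limits was 3.0 at PER2 and 1.69 at PER1. The background at PER2 was below the range in which the ratio of backgrounds between lists was checked. The circadian list stood out in earlier results of these data, so its count is not independent evidence.

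Nuclear receptor coregulators had no region near an end, but 6 of 30 held one in the span, against 3.0% of all coding genes. These genes are long, with a median of 96278 bp against 24170 bp for all coding genes. MED1, the Mediator subunit that nuclear receptors contact, had 22 and 33 fragments (chr17:39429713-39430118), against limits of 9 and 10 and with a ratio of 2.46. PPARGC1A, a coactivator of PPARα in fasting liver, had 27 and 38 fragments 93260 bp from its start (chr4:24379446-24379796), against limits of 16 and 17. BCAS3, reported as an estrogen receptor coactivator, had 34 and 28 (chr17:60830527-60830865), against 16 and 17, and the p160 coactivator NCOA2 had 30 and 44, against 24 and 26. LCOR, a corepressor, and NCOA3, another p160 coactivator, completed the 6. The lower ratios ran from 1.26 at NCOA2 to 2.46 at MED1 among the 4 with values given.

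No estrogen response gene of 30 and no nuclear receptor gene of 48 had a region near an end or in the span, which allows shares of up to 10% and 6.25%. The nuclear receptor list includes PPARA, ESR1 and ESR2. The same held for 76 respiratory chain and ATP synthase genes, 33 of glycolysis and gluconeogenesis, 30 hepatocyte plasma protein and marker genes, and 15 each of muscle, blood and adipocyte. Respiratory chain and hepatocyte genes are short, with medians of 10198 and 10742 bp. PDE11A, a phosphodiesterase of cyclic AMP and cyclic GMP, was the single gene of 30 in the cGMP list, with 15 and 15 fragments (chr2:177928112-177928458), against limits of 11 and 12. Its lower depth-scaled ratio was 1.13 to the PPARα limits and 0.985 once the PPARα+ERα limits were included. Among 20 thermogenesis genes ATF2, a stress-activated transcription factor, had 18 and 15 (chr2:175141877-175142201), against 9 and 10, beside PPARGC1A. MDM2, the ubiquitin ligase of p53, had 14 and 18 (chr12:68816025-68816377), against 6 and 7, and was with GCLM the pair found among 25 stress genes. TUBB3, a neuronal tubulin, was the single gene of 15 in the neuron list, with 11 and 15 fragments (chr16:89930423-89930846), against 4 and 4. Peaks do not measure expression, so these counts say nothing of the levels of these genes.

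The rule left out any region that overlapped a peak of another group, and the distances to such peaks were not measured for a comparison set. The nearest such peak was a median of 8723 bp away (quartiles 3804 and 18967 bp), and it was within 1 kb at 56 regions (4.95%) and within 10 kb at 612 (54.1%). The nearest PPARα peak was a median of 17999 bp away and the nearest PPARα+ERα peak 19394 bp. The nearest region in both PPARα+ERβ libraries that was not ERβ-only was a median of 87597 bp away. Within 20 kb of each other, ERβ-only regions formed 9 pairs, and the other 1114 stood alone. Just inside the rule, a region on chromosome 8 was 19 bp from a PPARα+ERα library 2 peak, the region at L3MBTL3 was 241 bp from a PPARα+ERα peak, and a region on chromosome 13 (chr13:72708256-72708596) was 231 bp from another. Just outside it, a region on chromosome 12 (chr12:121275495-121276628) met a PPARα library 2 peak by 43 bp and a region on chromosome 17 (chr17:8213318-8213904) met a PPARα+ERα library 1 peak by 98 bp.

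A single library of the other groups kept 2136 further regions out. PPARα library 2, the longest list, was that library for 1162 and PPARα library 1 for 747, while PPARα+ERα libraries 1 and 2 were for 102 and 125. The excluding peak had a median −log10 q of 12.1 in PPARα library 2 and 7.32 in PPARα library 1, and of the 2136 peaks 147 had a −log10 q under 3. Without PPARα library 2 the number of ERβ-only regions was 2294, and without PPARα library 1 it was 1880.

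By chromosome, the share of ERβ-only regions among those in both PPARα+ERβ libraries was highest on chromosome 16, at 62 of 411 or 15.1% (11.9 to 18.9%). It was lowest on chromosome 12, at 33 of 472 or 6.99% (5.02 to 9.66%). Those intervals do not overlap each other and exclude the 11.1% over all chromosomes. Chromosomes 20, 19 and 21 followed at 14.1%, 14.0% and 13.9%, with intervals that include it. Chromosome 2 held the most, 118 of 1150 or 10.3%. With 23 chromosomes compared and no test made, these extremes are given as values. The copy number of each chromosome in these cells was not analysed here.

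**Figure D5:**
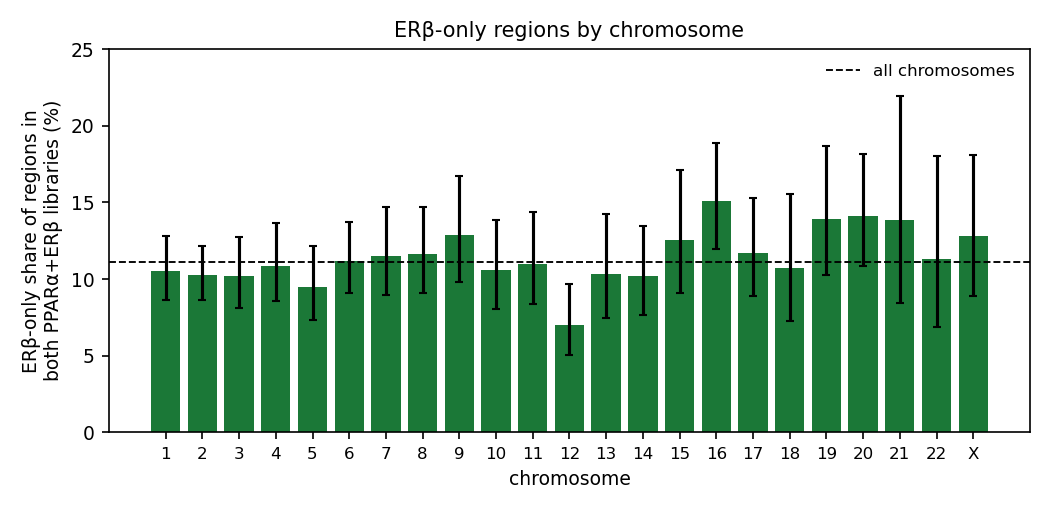
ERβ-only regions as a share of the regions with peaks in both PPARα+ERβ libraries on each chromosome, in percent with 95% Wilson intervals, beside the share over all chromosomes (dashed line, 11.1%). Chromosome 16 is highest at 15.1% and chromosome 12 lowest at 6.99%.

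Within RefSeq's table, 10 microRNA hairpins lay within 3 kb of an ERβ-only region. The share of all hairpins was not worked out, so the number is a description and cannot be called high or low. Over all genes of the table, 0.492% had a region within 3 kb of an end. The closest was MIR3170 on chromosome 13, 62 bp from a region. MIR7706 lay 829 bp away, MIR365A 1744 bp, MIR3615 1964 bp beside the NHERF1 region, and MIR6516 2212 bp beside the SEC14L1 region. MIR421, MIR374B and MIR374C share a cluster on chromosome X, 1350 to 1515 bp from a single region.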

How the data were processed

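PPARα chromatin immunoprecipitation with sequencing was analysed in 6 HepG2 libraries, 2 per group. Library numbers follow the order of deposit. The submitters' processing notes list MACS2 2.2.7.1, DiffBind 2.16, Bowtie 1.0.1, Trim Galore 0.6.4, HOMER 4.11 and ChIPseeker 1.18.0, with builds hg38 and GRCh38.p13. Roles, control and calling threshold are not given in the sources used here. WY14643 is also spelled Wy13643 in the labels.

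The deposited lists give a peak per line for each library. Its score, as deposited, holds 10 times −log10 q without decimals. Fold, as deposited by the authors, is the ratio of the summit to a local background estimated for each library, and was compared within a list alone. Both the −log10 p and the −log10 q that the authors deposited refer to the summit.

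Stacked fragments and local background were solved from fold (each term raised by 1) and from p (a Poisson tail), and whole fragments matched −log10 p to 0.001 at 100% of peaks. The lowest background of a list is its genome-wide level, which also scaled depth between libraries. The calling limit is the largest stack whose −log10 p stays under the lowest in that list, at a background estimated by the commonest ratio between lists. A change in depth of a library moves its stacks, limits and list length, and so the regions called absent. Gene spans, starts and promoter windows are those of RefSeq GRCh38.p14. That table has no starts on chromosome 8, so shares near starts leave it out. Tools were SciPy 1.17.1, NumPy 2.4.6, pandas 2.3.3 and Matplotlib 3.10.9 under Python 3.11.15, and the steps were tested on simulated data.

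The regions and the 17 gene lists were chosen with earlier results of these data known. Regions were ranked by the lower of their within-list percentiles of −log10 q. Named are the 15 highest near a coding gene end, 8 inside coding genes, 5 outside genes, up to 4 genes per list, PPARA, ESR1, ESR2, the densest, widest and highest stacked regions, and up to 8 at promoter windows. GCLM as an example of a low ratio, CUL3, ADAM22, IL16, the genes with 3 regions, LCOR, NCOA3, the regions at the edge of the rule and the microRNAs were named after their values were seen, as were the calling limit and recurrence counts. No test was made, since the members were chosen from these peaks and 2 libraries a group cannot reach 0.05. Intervals are 95% Wilson intervals for counting error, and a count of 0 is given the share that 3 counts would make. The alternatives tried were the overlap, q, list length, absence, background and distance settings, and leaving out each library.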

Additional observations from a re-analysis of the deposited data

Results flagged for a closer look

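Outside chromosomes 1 to 22 and X, 188 merged regions were found, and 1 of them met the same rule, with a peak in both PPARα+ERβ libraries and in no library of the PPARα+ERα or PPARα group. It was picked out because those sequences enter no comparison above.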

How the results depend on the processing

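Of 1132 ERβ-only regions at 11.09% of those shared by the PPARα+ERβ libraries, lists of equal length (17457 peaks each) gave 1979, at 22.4%, with 493 genes in place of 291 and a gap of 15147 bp in place of 8723 bp. A −log10 q of 5 or more in the PPARα+ERβ lists alone gave 601, at 8.03%, with 177 genes, 22.3% near a gene end and a median stack of 28.5 fragments in place of 24. The same in all 6 lists moved the gap to 13233 bp and the background to 6.61 times in place of 7.97 times. Local backgrounds up to 3 times gave 279 regions, at 13.2%, with 61 genes, 62.0% in a gene, 11 fragments, a background of 1.56 times and a gap of 24130 bp, and kept 6 of 49 named regions. The share near an end was 8.92% at 1 kb (116 genes) and 44.4% at 10 kb (842 genes). Leaving out each library in turn gave 1234 to 5781 regions (5781 without PPARα+ERβ library 1, 4015 without library 2, 1880 and 2294 without PPARα library 1 and 2). Across these the share was 12.1 to 24.8%, the genes 314 to 1368, the gap 9687 to 12976 bp, the stack 21.0 to 26.5 fragments, the background 6.09 to 8.59 times, the share in a gene 61.9 to 66.2% and near an end 19.0 to 19.9%. Leaving out a library relaxes the rule for any region, so all 49 named regions were kept by construction. PDE11A, ATF2, GCLM and RBM26 were lost under both stricter q settings and at equal length, NCOA2 under both stricter q settings, and SEC14L1, L3MBTL3 and SLC29A1 when no other peak was allowed within 1 kb. Joining by summits or by overlap of the shorter peak, and absence within 1 kb, left each of these within its interval or, for counts, within 1.5 times. The cause was not tested, except that fewer libraries or peaks exclude or admit fewer regions by construction. No paired analysis was possible because library numbers follow the order of deposit only. Regions of few fragments are known with little precision.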
